A study of Mus musculus with 16 samples.

Results

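The comparison described here is the effect of a high-fat diet on the oligodendrocyte RNA of App knock-in mice: 4 libraries from mice on the high-fat diet (App_HFD 547, 559, 560 and 561, the numbers being those in the sample titles) against 3 from mice on the control diet (App_NCD 537, 538 and 545). These are 7 of the 16 libraries of the study, and a further control-diet library, App_NCD 553, was left out because 39.4% of its counts came from mitochondrially encoded genes. The mice of both groups were male and homozygous for App NL-G-F, an allele in which the amyloid-β stretch of the mouse gene is humanised and carries the Arctic, Beyreuther/Iberian and Swedish mutations. The allele sits at the App locus itself and the homozygous line was kept inbred, so the knock-in is shared by both diet groups and is not restricted to oligodendrocytes. From 2 months of age the mice ate either the control chow CE-2 (12.5% of energy from fat, 345.0 kcal per 100 g) or the high-fat chow D12492 (60.0% of energy from fat, 524 kcal per 100 g) for 6 months, and their brains were taken at 8 months after perfusion. Cells of the oligodendrocyte lineage were isolated by magnetic sorting, and poly(A) RNA was sequenced in directional libraries. Male C57BL/6J Jcl mice, bought from a breeder and fed the same diets over the same months, gave 4 libraries per diet (WT_NCD and WT_HFD) and serve as the reference for the diet effect without the knock-in.

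Oligodendrocytes wrap axons in myelin, a membrane rich in cholesterol, galactolipids and long-chain fatty acids, and they make much of that lipid themselves. Long-term feeding of a diet rich in fat makes mice obese and insulin resistant, and it can raise circulating corticosterone, the steroid that acts on the glucocorticoid receptor. That receptor switches on a shared set of targets in many cell types, among them regulators of lipid use, of growth arrest and of the receptor itself.

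Levels are given as CPM, in which the count of a gene is set relative to the scaled total of its library, and fold changes as the log2 ratio of App_HFD over App_NCD from edgeR's quasi-likelihood test on 22322 genes. A gene was called where its p, adjusted over all tested genes by the Benjamini-Hochberg method, was under 0.05. The titles number the libraries like single animals. The p-values measure the spread between libraries within groups, and the wild-type libraries were fitted together with those of the App knock-in. The spread behind the p-values of the App comparison therefore came from both genotypes.

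The 7 libraries held 64538297 to 101709022 counts, and mitochondrially encoded genes took 2.98% to 4.17% of them. Their markers matched the label in part. The 30 myelin and mature oligodendrocyte genes, all above 1 CPM, summed to between 39900 and 62080 CPM, but 24 disease-associated microglial genes summed to 22950 to 37270 CPM, 15 homeostatic microglial genes to 9849 to 16490 CPM and 10 choroid plexus and ependymal genes to 13420 to 32920 CPM. A few genes carried much of these sums. On the control diet Ctsd averaged 12680 CPM, Apoe 7748 CPM and Ctsb 4070 CPM (n = 3). Ctsb is also on the list of the disease-associated oligodendrocyte state. Without Ttr and Enpp2, the latter also made by oligodendrocytes, the other 8 choroid plexus and ependymal genes summed to 678 to 1564 CPM. The sums are therefore no measure of the share of each cell type. Neuronal genes were nearly absent: without Tubb3, the 13 remaining neuronal markers summed to 11.1 to 13.7 CPM, and 7 of the 14 neuronal markers stayed below 1 CPM in every library. App_NCD 537 stood apart from the other control-diet libraries in 2 respects: ribosomal protein genes took 1.29% of its counts against 2.61% and 2.78%, and 15 astrocyte genes summed to 5699 CPM against 2666 and 2706 CPM. In such mixed samples fewer cells of a type and less RNA per cell cannot be told apart. App itself, the knocked-in gene, was at 2344 ± 99.4 CPM (SD, n = 3) on the control diet and 2451 ± 173 CPM (SD, n = 4) on the high-fat diet, with overlapping groups and a log2 fold change of 0.06 ± 0.151 (SE).

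No gene was called for diet in the App knock-in by edgeR (0% of 22322 genes), and the smallest adjusted p was 0.0746. The genes nearest to the threshold were mostly higher on the high-fat diet: all 5 with an adjusted p under 0.1 and 35 of the 39 with one under 0.2. These values drew on the wild-type libraries for the spread. With only the 7 libraries of the comparison fitted, the smallest edgeR adjusted p was 0.192, so no gene had one under 0.1. At an unadjusted p under 0.05 there were 1576 genes (7.06%), of which 972 (4.35%) were higher and 604 (2.71%) lower on the high-fat diet. All 4 App_HFD libraries lay above all 3 App_NCD libraries for 1011 genes (4.53%) and below them for 826 (3.7%). DESeq2 called 112 genes in the same comparison, 87 higher and 25 lower, and limma-voom with quality weights called 161, 148 higher and 13 lower. Both tools called 65 of these genes, which is 58% of the DESeq2 calls and 40.4% of the voom calls. The number called therefore depended on the tool, whereas edgeR with the adjusted threshold gave at most 7 under any setting tried.

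The size that most differences could have was limited from above. Among the 14811 genes that averaged 1 CPM or more, the 95% interval of the fold change lay within 2-fold in either direction for 13386 genes (90.4%) and within 1.5-fold for 9651 (65.2%). The median log2 fold change of all tested genes was -0.00195, so the scaling left the bulk of genes level. With scaling to the myelin genes instead, that median was -0.16, and 246 of 1196 genes at an unadjusted p under 0.05 were higher, against 972 of 1576. With RLE scaling 819 of 1555 were higher, and with App_NCD 553 included 694 of 2586.

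**Figure D1:**
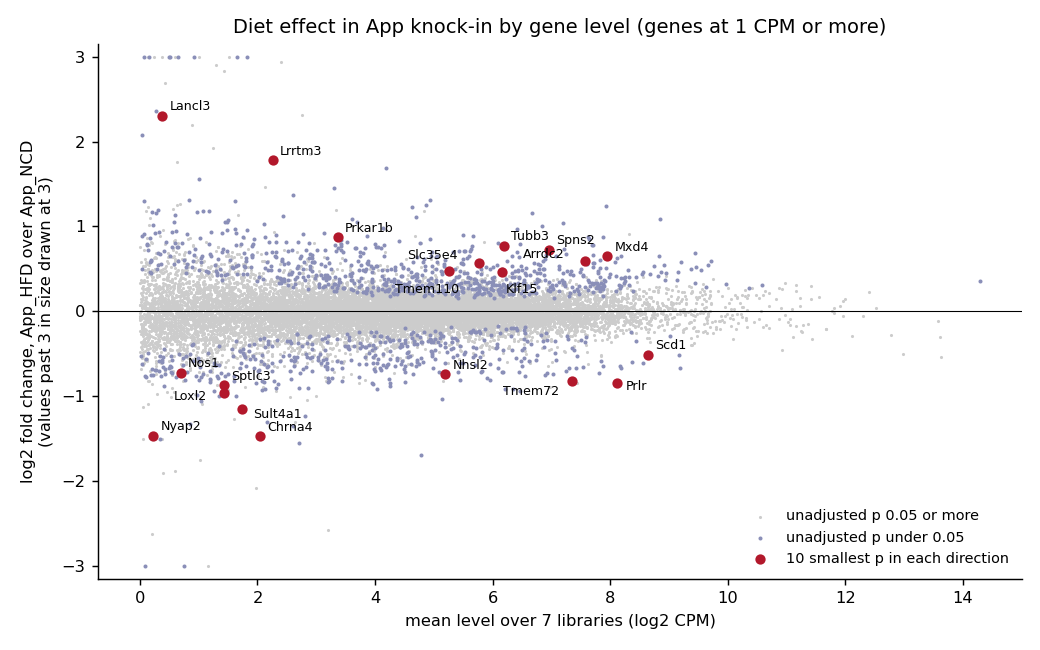
Log2 fold change of each gene averaging 1 CPM or more (vertical axis, App_HFD over App_NCD) against its mean level over the 7 libraries (horizontal axis, log2 CPM), with the 10 smallest p in each direction in red. The labelled genes with higher levels on the high-fat diet, such as Spns2 and Mxd4, sit at log2 fold changes below 1 except Lrrtm3 and Lancl3, which were expressed at a low level.

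The 10 genes with a proper symbol and the smallest p among those higher on the high-fat diet were Spns2, Tubb3, Mxd4, Slc35e4, Lrrtm3, Klf15, Tmem110, Prkar1b, Arrdc2 and Lancl3, and none of them passed the threshold in edgeR. Spns2 (mm10, chromosome 11, 72451638 to 72489904, minus strand) encodes the exporter of sphingosine-1-phosphate, a signalling sphingolipid. It was at 90.2, 88.8 and 92.7 CPM in App_NCD 537, 538 and 545 and at 147, 134, 136 and 181 CPM in App_HFD 547, 559, 560 and 561. The groups did not overlap, and the control-diet libraries lay close together. Its log2 fold change was 0.73 ± 0.11 (SE, 95% interval 0.49 to 0.96), with an adjusted p of 0.0746 in edgeR and 1.87e-06 in DESeq2. Mxd4 (chromosome 5, 34173883 to 34187720, minus strand) encodes a partner of MAX that opposes MYC at E-box sequences. It was at 187, 170 and 201 CPM on the control diet and at 304, 276, 276 and 315 CPM on the high-fat diet, again without overlap, and its log2 fold change was 0.65 ± 0.113 (SE, edgeR adjusted p = 0.103). Klf15 (chromosome 6, 90462576 to 90475238, plus strand) encodes a zinc-finger transcription factor of glucose, amino acid and lipid metabolism that glucocorticoids induce. Its levels were 58.0, 57.1 and 60.9 CPM on the control diet and 86.1, 81.6, 79.4 and 77.0 CPM on the high-fat diet. The spread within each group was small beside the gap between them, and the log2 fold change was 0.47 ± 0.0827 (SE, edgeR adjusted p = 0.114).

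Tubb3 (chromosome 8, 123411424 to 123422015, plus strand), the β-tubulin usually taken as a neuronal marker, was at 48.2, 52.3 and 55.0 CPM on the control diet and at 102, 67.3, 89.4 and 95 CPM on the high-fat diet. The groups did not overlap, with App_HFD 559 the lowest of its group, and the log2 fold change was 0.77 ± 0.125 (SE, edgeR adjusted p = 0.0778). The sum of the other 13 neuronal markers was 11.1, 11.5 and 12.4 CPM on the control diet and 12.4, 12.5, 13.7 and 13.3 CPM on the high-fat diet, so it was low in both groups. Lrrtm3, a synaptic adhesion protein, was at 1.72, 1.81 and 2.49 CPM on the control diet and at 8.26, 3.56, 6.67 and 9.04 CPM on the high-fat diet, a log2 fold change of 1.78 ± 0.31 (SE, edgeR adjusted p = 0.103). Here too App_HFD 559 was the lowest of the high-fat libraries and still above every control. Prkar1b, a regulatory subunit of protein kinase A, was at 6.99 ± 1.23 CPM (SD, n = 3) and 12.8 ± 0.897 CPM (SD, n = 4). Arrdc2, an arrestin-domain protein, was at 147 ± 12.9 and 221 ± 32.4 CPM, and Tmem110, a regulator of calcium entry at the endoplasmic reticulum, at 31.4 ± 1.77 and 43.7 ± 2.7 CPM. Slc35e4 was at 42.7 ± 4.88 and 63.5 ± 2.94 CPM, and Lancl3 was low in all libraries, at 0.404 ± 0.217 and 1.98 ± 0.727 CPM. Each of these 10 genes was called by both DESeq2 and voom. They were picked for their small p in the same counts, so these calls are not separate evidence.

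The 250 bases before and 50 bases after the start of 3 of the genes are shown, because Mxd4 acts at the E-box and because Klf15 and Fkbp5 are glucocorticoid targets described below. The sequences are from RefSeq (GRCm38.p6, written 5′ to 3′ on the strand of the gene), with each match to the E-box CACGTG in capitals. Klf15 (chr6:90462326-90462625, plus strand) held 3 matches, at bases 23 to 28, 79 to 84 and 248 to 253 of the printed run. Mxd4 (chr5:34187661-34187960, minus strand) and Fkbp5 (chr17:28486100-28486399, minus strand) held 1 each, at bases 32 to 37 and 82 to 87.
Klf15: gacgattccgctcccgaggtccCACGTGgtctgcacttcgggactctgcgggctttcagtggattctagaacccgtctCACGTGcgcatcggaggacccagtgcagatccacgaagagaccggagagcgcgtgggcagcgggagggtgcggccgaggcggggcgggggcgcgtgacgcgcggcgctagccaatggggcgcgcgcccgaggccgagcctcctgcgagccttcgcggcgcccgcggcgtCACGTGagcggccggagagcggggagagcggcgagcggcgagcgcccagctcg
Mxd4: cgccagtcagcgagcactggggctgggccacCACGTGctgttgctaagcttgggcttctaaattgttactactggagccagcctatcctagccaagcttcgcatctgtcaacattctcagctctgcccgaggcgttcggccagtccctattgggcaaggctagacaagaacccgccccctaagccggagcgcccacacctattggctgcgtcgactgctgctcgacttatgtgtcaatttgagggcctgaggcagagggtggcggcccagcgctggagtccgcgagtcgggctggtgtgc
Fkbp5: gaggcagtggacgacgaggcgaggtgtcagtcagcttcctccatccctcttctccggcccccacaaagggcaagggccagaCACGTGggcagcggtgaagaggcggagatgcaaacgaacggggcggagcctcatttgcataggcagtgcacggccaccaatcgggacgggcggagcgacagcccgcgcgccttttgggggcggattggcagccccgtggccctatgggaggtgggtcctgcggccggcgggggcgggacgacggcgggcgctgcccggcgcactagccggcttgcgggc
These 3 were chosen after their values were seen. The E-box, which reads the same on both strands, occurred in 7.15% of all 32851 promoter entries of this length. Of the 13 entries for 9 of the 10 higher genes (1 had no entry), 3 held it, those of Mxd4, Klf15 and Prkar1b. None of the 8 entries for 6 of the 10 lower genes held it, and 6 of the 34 entries of the glucocorticoid targets did. The forkhead motif GTAAACA, searched on both strands, occurred in 3.65% of all entries, in none of the 13 entries of higher genes, in 1 of the 8 of lower genes (Prlr) and in 1 of the 34 of the glucocorticoid targets (Klf9). These are matches of letters and were not read as binding sites.

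The 10 genes with the smallest p among those lower on the high-fat diet were Sptlc3, Scd1, Nos1, Nyap2, Chrna4, Loxl2, Tmem72, Sult4a1, Prlr and Nhsl2, and none passed in edgeR. DESeq2 called all 10, and voom called 7 of them but not Sptlc3, Nyap2 and Loxl2. These genes too were picked for their small p in the same counts, so the calls are not separate evidence. Scd1 (chromosome 19, 44394455 to 44407879, minus strand) encodes the desaturase that makes monounsaturated fatty acids from saturated ones and is highly expressed in oligodendrocytes. It was at 511, 448 and 488 CPM on the control diet and at 337, 284, 360 and 374 CPM on the high-fat diet. The groups did not overlap, and the log2 fold change was -0.51 ± 0.101 (SE, 95% interval -0.73 to -0.29), with an adjusted p of 0.148 in edgeR, 5.67e-05 in DESeq2 and 0.0173 in voom. Sptlc3 (chromosome 2, 139493913 to 139637674, plus strand), a subunit of serine palmitoyltransferase, the first enzyme of sphingolipid synthesis, was at 4.55, 2.87 and 3.47 CPM on the control diet and at 1.98, 2.12, 1.85 and 2.00 CPM on the high-fat diet. The high-fat libraries were close to each other and below every control, and the log2 fold change was -0.87 ± 0.166 (SE, edgeR adjusted p = 0.144). Prlr (chromosome 15, 10177238 to 10349180, plus strand), the prolactin receptor, was at 382, 368 and 359 CPM on the control diet and at 197, 232, 241 and 158 CPM on the high-fat diet, a log2 fold change of -0.84 ± 0.197 (SE, edgeR adjusted p = 0.252).

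The remaining lower genes were less abundant apart from Tmem72, at 217 ± 17.8 CPM (SD, n = 3) on the control diet and 123 ± 22.9 CPM (SD, n = 4) on the high-fat diet, and Nhsl2, at 47.6 ± 5.34 and 28.4 ± 2.81 CPM. Chrna4, a nicotinic acetylcholine receptor subunit, was at 6.46 ± 0.85 and 2.33 ± 0.461 CPM. Nos1, the neuronal nitric oxide synthase, was at 2.09 ± 0.133 and 1.27 ± 0.11 CPM, and Loxl2, a lysyl oxidase of the extracellular matrix, at 3.74 ± 0.841 and 1.92 ± 0.397 CPM. Sult4a1, a brain sulfotransferase, was at 4.87 ± 0.982 and 2.19 ± 0.495 CPM, and Nyap2, an adaptor of phosphoinositide 3-kinase, at 1.84 ± 0.743 and 0.669 ± 0.0121 CPM. In all of them the groups did not overlap, which choosing genes by a small p favours. Of all genes, 3.7% had every high-fat library below every control.

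**Figure D2:**
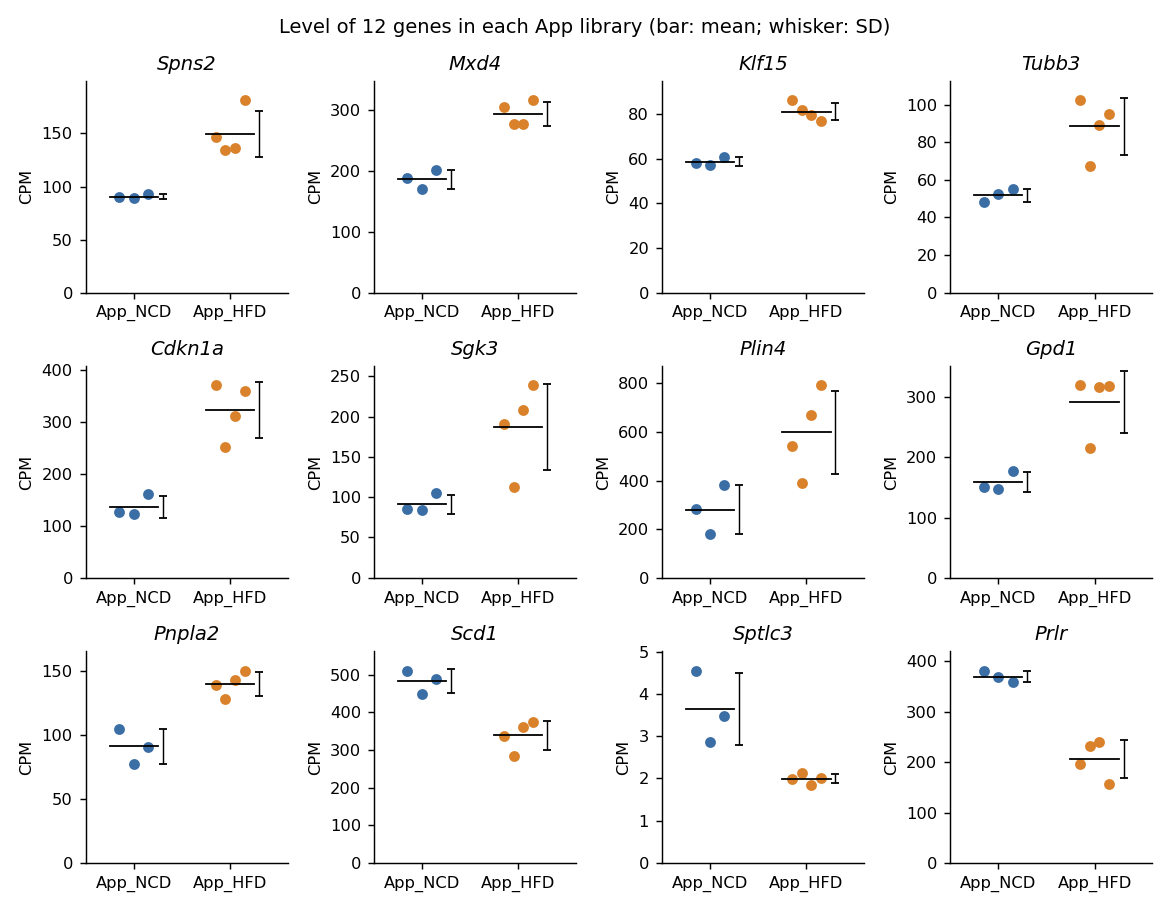
Level in CPM of 12 genes in each App library (points), with the mean (line) and SD (whisker) of App_NCD (n = 3) and App_HFD (n = 4). In each panel the high-fat libraries lie on one side of the control-diet libraries, above them for the 9 genes from Spns2 to Pnpla2 and below them for Scd1, Sptlc3 and Prlr. The 12 genes were picked by their p or after their values were seen.

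Glucocorticoid targets were the list of genes with the most members at a low p. Of the 28 listed, all tested, 25 had a positive log2 fold change, 13 were higher and 0 lower at an unadjusted p under 0.05 (background 4.35% and 2.71%), and 8 had all high-fat libraries above all controls (background 4.53%). None was called by edgeR, 3 were by DESeq2 (Cdkn1a, Klf15 and Sgk3) and 4 by voom (these and Tsc22d3). Among all 22322 genes DESeq2 called 112 and voom 161. The median log2 fold change of the list was 0.34, against -0.00195 over all genes tested. Across the alternatives, which included each library left out in turn, 19 to 26 members were positive and the median was 0.18 to 0.40. The members named below were chosen after their values were seen, for their p or as standard readouts of the receptor.

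Cdkn1a (chromosome 17, 29090976 to 29100727, plus strand) encodes the cell cycle inhibitor p21. It was at 127, 123 and 162 CPM on the control diet and at 371, 253, 311 and 361 CPM on the high-fat diet, and its log2 fold change was 1.24 ± 0.254 (SE, 95% interval 0.70 to 1.78, edgeR adjusted p = 0.162). Every high-fat library lay well above the highest control. Sgk3 (chromosome 1, 9798107 to 9900845, plus strand), a kinase of the serum- and glucocorticoid-regulated family, was at 84.9, 84.1 and 105 CPM on the control diet and at 190, 113, 208 and 239 CPM on the high-fat diet, a log2 fold change of 1.04 ± 0.205 (SE, edgeR adjusted p = 0.148). App_HFD 559 was close to the controls and the other high-fat libraries were far above them. Sgk3 is counted on the list, but whether glucocorticoids raise it in these cells was not tested. Without App_HFD 559, edgeR called 7 genes, all higher on the high-fat diet: Tubb3, Sgk3 (adjusted p = 0.0152), Lrrtm3, Gm43089, Spns2, 9530077C05Rik and Gpd1.

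Fkbp5, a chaperone partner that dampens the receptor and is widely used to read its activity, was at 187, 149 and 160 CPM on the control diet and at 265, 272, 182 and 265 CPM on the high-fat diet. App_HFD 560 lay within the range of the controls and the 3 others lay above it; the log2 fold change was 0.57 ± 0.229 (SE, edgeR adjusted p = 0.618). Zbtb16, a zinc-finger transcription factor, was at 171, 87.3 and 188 CPM and at 273, 212, 202 and 337 CPM, and Ddit4, an inhibitor of mTOR signalling, at 93.9, 190 and 185 CPM and at 318, 231, 201 and 240 CPM. Neither pair of groups overlapped, though the controls of both spread widely. Tsc22d3, which encodes the anti-inflammatory protein GILZ, was at 307, 206 and 223 CPM and at 304, 340, 278 and 368 CPM, with overlap. Errfi1, an inhibitor of epidermal growth factor receptor signalling, and Pdk4, which restrains pyruvate dehydrogenase, also overlapped, with log2 fold changes of 0.48 ± 0.165 and 0.39 ± 0.158 (SE). Sgk1, the best-known kinase target and already abundant here at 1695 ± 135 CPM (SD, n = 3), was at 1870 ± 148 CPM (SD, n = 4) on the high-fat diet. Nr3c1, the receptor itself, was at 192 ± 12.6 and 179 ± 5.7 CPM, with a 95% interval of its log2 fold change from -0.28 to 0.07.

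The members did not share one pattern across the high-fat libraries. Of the 13 with an unadjusted p under 0.05, 8 were lowest in App_HFD 560 among the high-fat libraries (Errfi1, Ddit4, Tsc22d3, Fkbp5, Pdk4, Zbtb16, Sult1a1 and Klf9), 3 in App_HFD 559 (Sgk3, Cdkn1a and Plin4), 1 in App_HFD 547 and 1 in App_HFD 561.

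**Figure D3:**
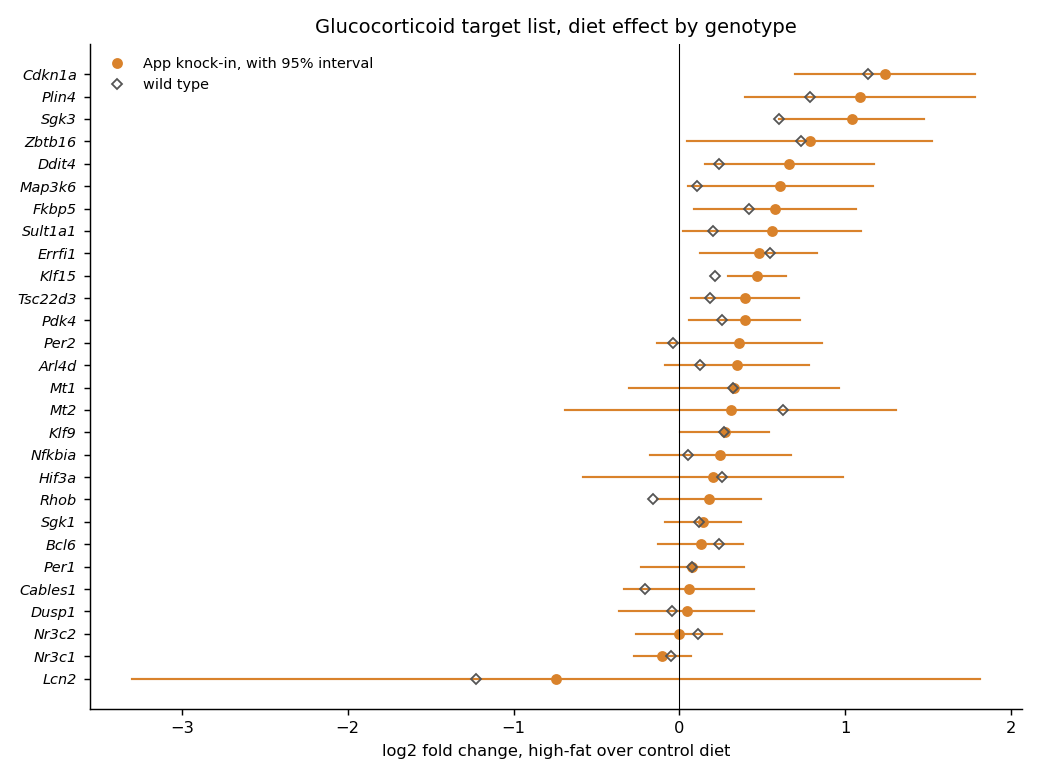
Log2 fold change of each of the 28 glucocorticoid targets on the high-fat over the control diet, in the App knock-in (filled points with 95% intervals) and in wild type (open diamonds). Positive values hold for 25 members in the App knock-in and 22 in wild type, and the widest interval is that of Lcn2.

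Genes of lipid droplets and lipolysis gave the next highest share of members that were higher at a low p. Of 18 tested, 14 were positive, 7 were higher and 0 lower at an unadjusted p under 0.05, and 5 had all high-fat libraries above all controls (background 4.35%, 2.71% and 4.53%). Their median log2 fold change was 0.10, and it was -0.04 with scaling to the myelin genes, where the median of all genes was -0.16. Without App_NCD 538 or 545 it was 0.16 or 0.17. Pnpla2 (chromosome 7, 141455198 to 141460743, plus strand) encodes the lipase that starts triglyceride breakdown. It was at 105, 77.7 and 91.1 CPM on the control diet and at 139, 128, 143 and 151 CPM on the high-fat diet, with no overlap and a log2 fold change of 0.62 ± 0.121 (SE, edgeR adjusted p = 0.144, voom adjusted p = 0.00559). Plin4 (chromosome 17, 56100591 to 56109803, minus strand), a droplet coat protein that is also on the glucocorticoid list, was at 282, 180 and 380 CPM and at 544, 388, 668 and 791 CPM. The lowest high-fat library was just above the highest control, and the log2 fold change was 1.09 ± 0.325 (SE, edgeR adjusted p = 0.43). The 3 others without overlap were Dgat2, which makes triglyceride, at 11.6 ± 0.882 CPM (SD, n = 3) and 16.1 ± 1.76 CPM (SD, n = 4), Mgll, the monoacylglycerol lipase, at 52.4 ± 4.46 and 66.0 ± 6.66 CPM, and Lipe, the hormone-sensitive lipase, at 40.4 ± 3.31 and 53.5 ± 5.06 CPM. Gpd1 (chromosome 15, 99717515 to 99725005, plus strand), which makes the glycerol phosphate backbone of triglyceride and marks oligodendrocytes, was at 151, 148 and 177 CPM on the control diet and at 319, 215, 316 and 318 CPM on the high-fat diet. Its groups did not overlap, App_HFD 559 lay nearer to the controls than to the other high-fat libraries, and the log2 fold change was 0.88 ± 0.171 (SE, edgeR adjusted p = 0.144).

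Genes that make lipid were split between directions. Of 24 genes of fatty acid synthesis, desaturation and elongation, 13 were positive and 11 negative. At an unadjusted p under 0.05, 1 was higher and 3 lower (background 4.35% and 2.71%). In 3 all high-fat libraries lay below all controls (background 3.7%). The median log2 fold change was 0.02, which was -0.13 with scaling to the myelin genes. Beside Scd1, Elovl6, an elongase of saturated fatty acids, was at 124, 115 and 108 CPM on the control diet and at 86.8, 86.5, 79.9 and 103 CPM on the high-fat diet, without overlap (log2 fold change -0.38 ± 0.132, SE, edgeR adjusted p = 0.526). Of 25 genes of cholesterol synthesis, 8 were positive, with a median of -0.06. Only Nsdhl, a dehydrogenase of the late pathway, had an unadjusted p under 0.05, a share near the background. Its level was 27.0 ± 3.25 CPM (SD, n = 3) on the control diet and 22.4 ± 1.4 CPM (SD, n = 4) on the high-fat diet. The 18 genes of cholesterol export and esterification and the 31 of sphingolipid and galactolipid metabolism had medians of 0.02 and 0.0011. At an unadjusted p under 0.05, 1 of the 18 was higher and 0 lower, and 3 of the 31 were higher and 1 lower (background 4.35% and 2.71%). All high-fat libraries lay above all controls for 4 of the 31 and below for 1 (background 4.53% and 3.7%). The 32 genes of fatty acid uptake, oxidation and PPAR targets had a median of 0.03. Pdk4 was the only one with an unadjusted p under 0.05, a share near the background. With 1 library left out these medians crossed 0: fatty acid synthesis from -0.02 to 0.02, cholesterol export from -0.05 to 0.08, sphingolipid genes from -0.02 to 0.03 and fatty acid uptake from -0.0078 to 0.05. That of cholesterol synthesis was -0.10 to -0.04.

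Among genes of the oligodendrocyte itself, 25 of the 30 myelin and mature oligodendrocyte genes were positive, with a median of 0.18. At an unadjusted p under 0.05, 2 were higher and 0 lower, a share near the background of 4.35% and 2.71%. Without App_NCD 545 the median was 0.27. Without App_NCD 537, 16 of the 30 were positive and the median was 0.01. Mbp, myelin basic protein, was at 3724 ± 237 CPM (SD, n = 3) and 3894 ± 478 CPM (SD, n = 4). Of 20 genes of the disease-associated oligodendrocyte state, 15 were positive, with a median of 0.12 (-0.02 with scaling to the myelin genes) and 3 higher at an unadjusted p under 0.05. These were Cdkn1a, Klk6 and Sulf2, an extracellular sulfatase (background 4.35%). Sulf2 was at 286, 213 and 275 CPM on the control diet and at 346, 295, 399 and 401 CPM on the high-fat diet, without overlap. All high-fat libraries lay above all controls for 3 of the 20 genes (background 4.53%). Newly formed oligodendrocyte genes had a median of -0.01 over 9 genes and precursor genes one of 0.21 over 16 genes, which was 0.45 without App_NCD 537 and 0.10 without App_HFD 561. With 1 library left out the median of the newly formed oligodendrocyte genes was -0.0066 to 0.05.

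Disease-associated microglial genes, which mark the state that microglia take on around amyloid plaques, were abundant on both diets and lowest in 1 high-fat library. Of 24 such genes 23 were negative, with a median of -0.24, but none had an unadjusted p under 0.05 (background 2.71%). App_HFD 561 was the lowest high-fat library for 23 of the 24, and its mean log2 CPM over the list was 8.00, against 8.34 in App_HFD 560 and 8.58 to 8.75 in the other 5 libraries. Without App_HFD 561, 7 of the 24 were positive and the median was -0.11. Cst7, a cystatin typical of that state, was at 845, 877 and 922 CPM on the control diet and at 847, 966, 604 and 535 CPM on the high-fat diet. Apoe, the main lipid carrier of the brain, was at 7748 ± 769 CPM (SD, n = 3) and 6410 ± 1109 CPM (SD, n = 4), and Ctsd, a lysosomal protease, at 12680 ± 424 and 11719 ± 2486 CPM. Igf1, a growth factor made by such microglia, was the only member whose groups did not overlap, at 157, 165 and 157 CPM and at 137, 144, 104 and 91.0 CPM. That 1 of 24 was a share near the 3.7% of all genes with every high-fat library below every control. Of the 15 homeostatic microglial genes, 3 were positive, with a median of -0.13, and without App_HFD 561 7 were positive with a median of -0.0063. The part of the microglial share in the differences of other genes was not tested.

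Genes of the choroid plexus, the epithelium that makes cerebrospinal fluid, had negative log2 fold changes, and those of ciliated ependyma positive ones. Of 10 choroid plexus and ependymal genes, 6 were negative (Kcnj13, Kl, Clic6, Folr1, Ttr and Enpp2) and 4 positive (Rarres2, Tmem212, Ccdc153 and Foxj1). At an unadjusted p under 0.05, 4 were lower and 2 higher (background 2.71% and 4.35%). All high-fat libraries lay below all controls for 2 of them and above for 1 (background 3.7% and 4.53%). The median was -0.52, which was -0.34 to -0.70 over the alternatives, the former without App_NCD 538. Kcnj13, a potassium channel of the choroid epithelium, was at 126, 127 and 112 CPM on the control diet and at 55.4, 68.5, 82.9 and 46.6 CPM on the high-fat diet. Kl, which encodes klotho, was at 751, 779 and 678 CPM and at 393, 485, 632 and 349 CPM. Neither overlapped, and App_HFD 560 was in both the high-fat library nearest to the controls. Clic6, a chloride channel protein, was at 366 ± 79.2 CPM (SD, n = 3) and 232 ± 71 CPM (SD, n = 4), with overlap. Ttr, transthyretin, the most abundant of them, was at 8142, 19968 and 18211 CPM on the control diet and at 10504, 11164, 14070 and 6736 CPM on the high-fat diet. App_NCD 537 was thus low for Ttr but not for Kcnj13 or Kl, and the groups overlapped, as they did for Enpp2, the lysophospholipase autotaxin that oligodendrocytes also make. Without Ttr and Enpp2, the other 8 genes summed to 1321, 1564 and 1284 CPM on the control diet and to 777, 924, 1217 and 678 CPM on the high-fat diet. Prlr and Tmem72, described above, were lower in the same libraries, and the part of choroid plexus RNA in them was not tested. Rarres2, which encodes chemerin and is on the same list, went the other way, at 7.63 ± 0.998 CPM and 13.0 ± 3.31 CPM, without overlap.

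Of 15 astrocyte genes 14 were positive, with a median of 0.22, and 4 were higher and 0 lower at an unadjusted p under 0.05 (background 4.35% and 2.71%). Gjb6, the gap junction protein connexin 30, was at 158, 87.7 and 93.0 CPM on the control diet and at 159, 186, 184 and 191 CPM on the high-fat diet, a log2 fold change of 0.68 ± 0.198 (SE, edgeR adjusted p = 0.421, voom adjusted p = 0.00559). App_NCD 537, the control library with the most astrocyte RNA, lay just below the lowest high-fat library. Without it the median of the astrocyte genes was 0.68, without App_NCD 538 or 545 it was 0.11 or 0.08, and with App_NCD 553 included it was -0.14. Endothelial genes had a median of 0.26 (13 of 14 positive), pericyte and smooth muscle genes one of 0.31 (6 of 10), neuronal genes 0.35 (9 of 14), border macrophage genes -0.11 (1 of 8), T cell and neutrophil genes 0.06 (5 of 9) and erythroid genes -0.85 (0 of 5). Leaving out App_NCD 537 gave border macrophage genes a median of 0.10 (5 of 8 positive), T cell and neutrophil genes 0.35 and erythroid genes -0.38. Leaving out App_NCD 538 gave pericyte and smooth muscle genes 0.14 and T cell and neutrophil genes -0.26, and leaving out App_NCD 545 gave endothelial genes 0.47. Of the 9 T cell and neutrophil genes, 5 stayed below 1 CPM in all 7 libraries. With at least 10 counts required in all 7 libraries, 5 of the 9 were kept, 1 of them positive, with a median of -0.95. For the mean log2 CPM of each of the 13 cell type lists, the smallest exact permutation p over the 7 libraries was 0.114 (two-sided, oligodendrocyte precursor, neuron, and pericyte and smooth muscle), or 0.494 after adjustment over the 13. The smallest p that 4 libraries against 3 can give is 0.0571.

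**Figure D4:**
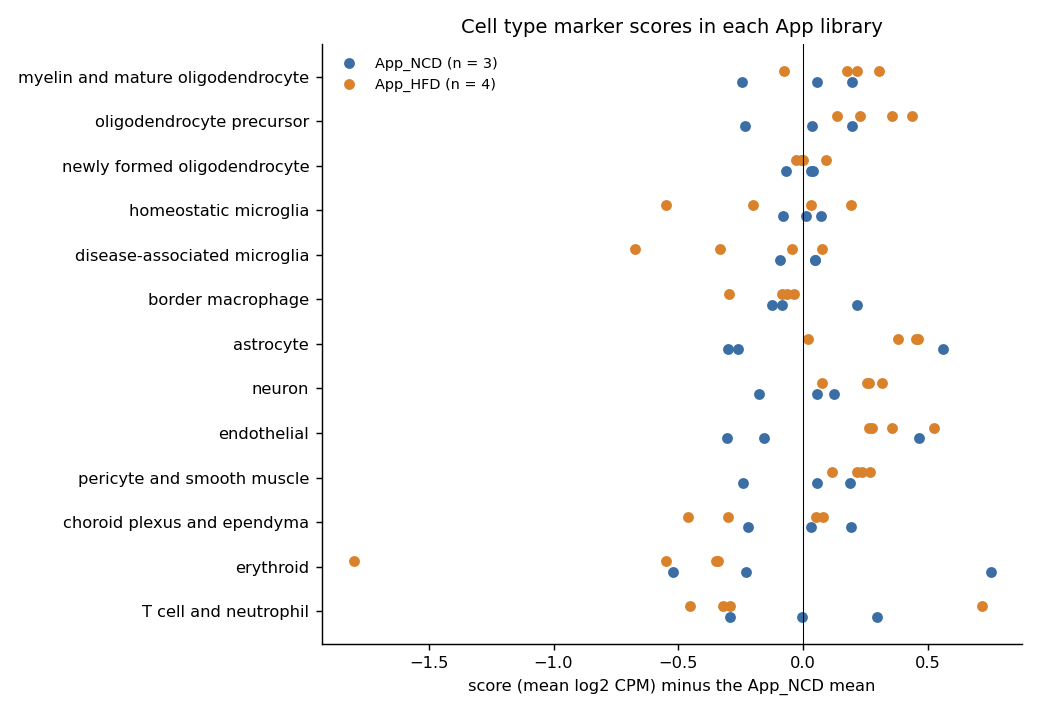
Mean log2 CPM of each cell type list in each library, drawn as the difference from the App_NCD mean (horizontal axis), for App_NCD (blue, n = 3) and App_HFD (orange, n = 4). App_HFD 561 is the lowest point of both microglial rows and of the erythroid row, and App_NCD 537 is the highest point of the astrocyte row.

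Clock genes vary over the day, and the labels give no hour at which the brains were taken. Of 20, 14 were positive, with a median of 0.13 (-0.03 with scaling to the myelin genes, 0.31 in voom and, with 18 positive, 0.34 without App_NCD 537). At an unadjusted p under 0.05, 3 were higher and 0 lower (background 4.35% and 2.71%). All high-fat libraries lay above all controls for 4 clock genes and below for 1 (background 4.53% and 3.7%). Cry1, a repressor of the clock, was at 11.1, 10.8 and 10.6 CPM on the control diet and at 14.3, 13.0, 15.4 and 12.2 CPM on the high-fat diet. Tef, a transcription factor driven by the clock, was at 111, 120 and 133 CPM and at 160, 141, 173 and 193 CPM, and neither gene overlapped. Cry2 was at 35.3, 27.3 and 27.2 CPM and at 35.1, 35.0, 40.5 and 43.4 CPM, with overlap through App_NCD 537. The part of sampling time in the other differences was not tested.

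The remaining lists had medians from -0.21 to 0.05. Of 19 genes of amyloid precursor processing 9 were positive (median -0.04), with Bace2, a second β-secretase-like protease, at 2.67 ± 0.135 CPM (SD, n = 3) and 4.12 ± 0.373 CPM (SD, n = 4). Genes of interferon and MHC class I had a median of -0.09 (8 of 30 positive), of MHC class II and cytokines -0.13 (4 of 24) and of complement -0.15 (5 of 19), and no member of the first 2 lists had an unadjusted p under 0.05. Glycolysis and lactate genes had a median of -0.11 (7 of 25 positive), although Slc2a1, the glucose transporter of the blood-brain barrier, was at 318, 278 and 332 CPM on the control diet and at 423, 422, 433 and 400 CPM on the high-fat diet, without overlap (edgeR adjusted p = 0.491). It was the only member with all high-fat libraries above all controls (background 4.53%), and 1 member had all of them below (background 3.7%). At an unadjusted p under 0.05, 4 of the 25 were higher and 0 lower (background 4.35% and 2.71%). Leptin, thyroid and retinoid response genes had a median of 0.05 (11 of 19), with Thra, a thyroid hormone receptor, at 182 ± 13.4 and 228 ± 16.4 CPM. Medians were 0.0083 for insulin and IGF signalling (14 of 27 positive), 0.0091 for immediate early genes (10 of 19), -0.05 for endoplasmic reticulum and integrated stress (9 of 25), 0.04 for heat shock (8 of 14), -0.04 for oxidative stress and iron (9 of 24), 0.00065 for the cell cycle (10 of 20), -0.21 for mitochondrially encoded genes (4 of 13), -0.09 for the nuclear-encoded respiratory chain (10 of 30) and -0.0034 for autophagy and lysosome (12 of 24). With 1 library left out the median changed sign for several of these lists. For the nuclear-encoded respiratory chain it was -0.33 (1 of 30 positive) without App_NCD 537 and 0.04 (18 of 30) without App_NCD 538, and for interferon and MHC class I it was 0.04 (19 of 30) without App_NCD 545. It ran from -0.09 to 0.08 for amyloid precursor processing, from -0.09 to 0.02 for endoplasmic reticulum and integrated stress, from -0.03 to 0.09 for heat shock and from -0.06 to 0.03 for oxidative stress and iron. It ran from -0.05 to 0.09 for insulin and IGF signalling, from -0.08 to 0.12 for immediate early genes, from -0.11 to 0.05 for the cell cycle and from -0.04 to 0.04 for autophagy and lysosome. It kept its sign but moved for mitochondrially encoded genes (-0.26 to -0.08), MHC class II and cytokines (-0.17 to -0.09), complement (-0.20 to -0.09), glycolysis and lactate (-0.14 to -0.04) and leptin, thyroid and retinoid response (0.03 to 0.12). None of these members was called by edgeR.

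**Figure D5:**
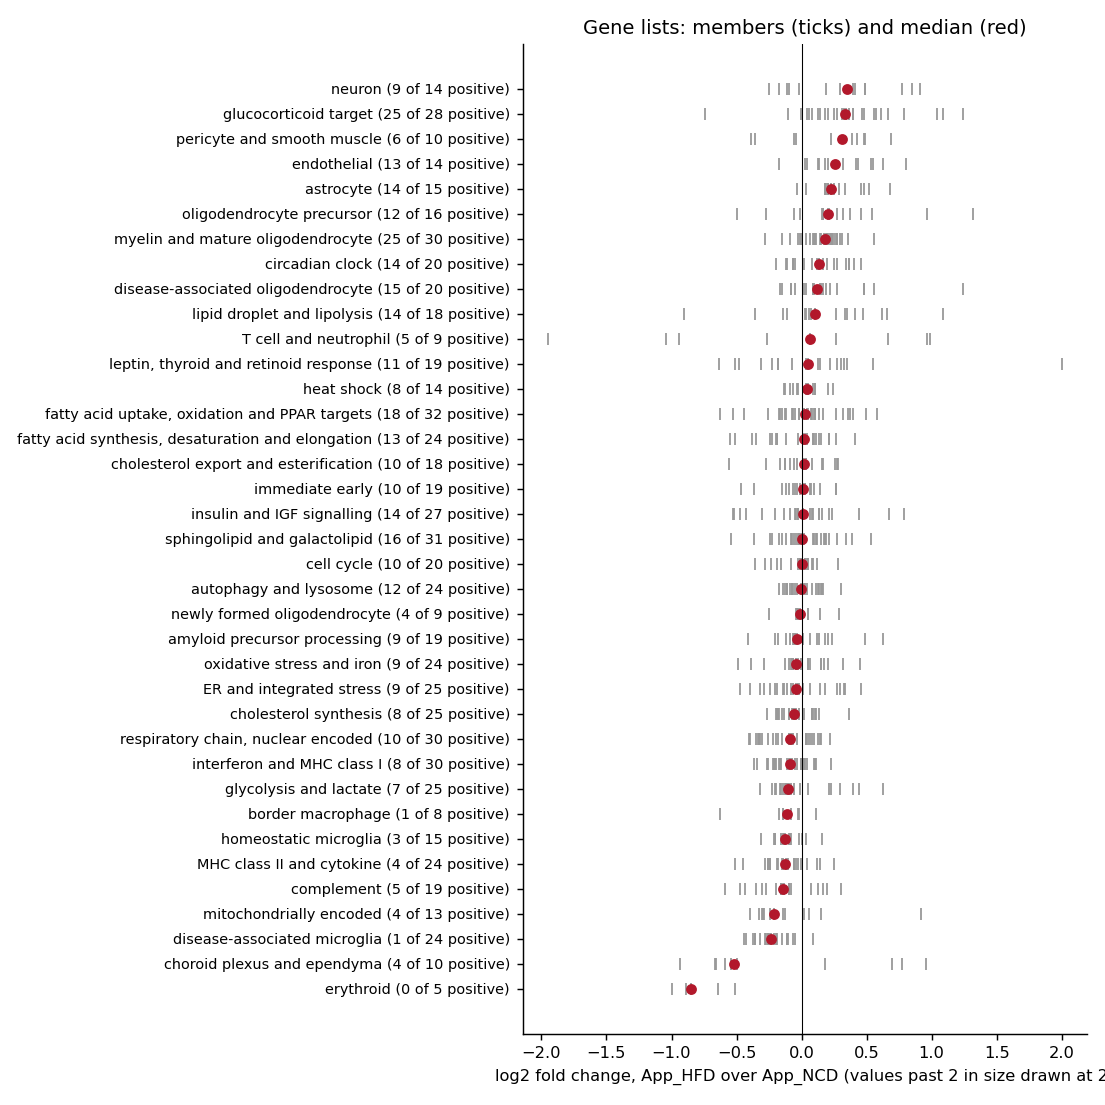
Log2 fold change (App_HFD over App_NCD) of every tested member of the 37 gene lists (ticks) with the median of each list (red), ordered by that median. Glucocorticoid targets have a median of 0.34 with 25 of 28 members positive, and disease-associated microglial genes one of -0.24 with 1 of 24 positive.

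The same diet was compared in wild type, in libraries that share none with the App comparison. edgeR called no gene there either (0% of 22322; smallest adjusted p 0.277), with 743 genes (3.33%) higher and 396 (1.77%) lower at an unadjusted p under 0.05; DESeq2 called 45 and voom 5. Of the 972 genes higher in the App knock-in at an unadjusted p under 0.05, 778 (80%) also had a positive log2 fold change in wild type, against 45.9% of all genes. Of the 604 lower genes, 469 (77.6%) were negative in wild type, against 54% of all genes. At an unadjusted p under 0.05 in both genotypes were 209 higher genes (21.5% of the App list, 28.1% of the wild-type list) and 49 lower ones (8.11% and 12.4%), and 13 genes went in opposite directions. Cdkn1a had log2 fold changes of 1.24 ± 0.254 (SE) in the App knock-in and 1.14 ± 0.23 in wild type, and Prkar1b ones of 0.87 ± 0.161 and 0.82 ± 0.147. The glucocorticoid targets had a median of 0.34 in the App knock-in and 0.21 in wild type, where 22 of 28 were positive. The choroid plexus and ependymal genes had one of -0.52 and -0.05, and the erythroid genes -0.85 and 2.51. The wild-type erythroid value rested mainly on WT_HFD 2 and 16, where haemoglobin genes took 0.929% and 0.515% of the counts. They took 0.0419% and 0.119% in WT_HFD 3 and 15, and 0.0422% to 0.115% in the WT_NCD libraries.

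The difference between the 2 diet effects, tested as the diet by genotype term, was called for no gene by edgeR (0%; the smallest adjusted p was 1), with 614 genes (2.75%) at an unadjusted p under 0.05, while DESeq2 called 6 genes and voom 0. The smallest p was that of Nos1, at -0.72 ± 0.151 (SE) in the App knock-in and 0.38 ± 0.138 in wild type (unadjusted p = 7.49e-05). Spns2 had log2 fold changes of 0.73 ± 0.11 and 0.31 ± 0.1 (unadjusted p of the difference 0.0123), Klf15 0.47 ± 0.0827 and 0.22 ± 0.0757 (0.0403), Prlr -0.84 ± 0.197 and -0.24 ± 0.184 (0.0439) and Cry1 0.34 ± 0.122 and -0.26 ± 0.112 (0.00237). None of these differences passed the adjustment over all genes in edgeR.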

How the data were processed

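Poly(A) RNA of sorted oligodendrocyte-lineage cells was measured in 16 libraries, 15 of which were fitted. The authors deposited 1 table of estimated counts, with genes in rows. Per the submitters' processing notes, the tools were fastp 0.23.2, HISAT2 2.2.1, StringTie 2.2.1 and bedtools 2.25.0, with the build mm10. Which annotation was used is not given in the sources used here. Every one of the 53801 rows named a gene, all values were whole as deposited, and no sample column was left unmapped (0). Reads of gene families with close copies (haemoglobin, immunoglobulin, MHC) may be split among members, so their values are uncertain.

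Groups came from the sample titles. Genes passing filterByExpr (22322) were scaled by TMM and fitted in 4 groups with edgeR 4.0.16 (glmQLFit robust, glmQLFTest; limma 3.58.1, R 4.3.3), with 11 residual degrees of freedom and a common biological coefficient of variation of 26.3%. Standard errors came from the fold change and its F value. A score averages log2 CPM over a list, using 0.5 as the prior count. The procedure was tested on simulated data. Coordinates are from GENCODE M21, which held 53706 of the gene IDs.

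The comparison, the 37 gene lists and the rule for named genes were chosen with earlier results of these data known. The rule takes App, called genes, the 10 smallest p per direction at 1 CPM or more with a proper symbol where fewer than 15 are called, up to 4 members per list by level, and the 10 smallest interaction p. Other genes were named after their values were seen. Alternatives were limma-voom with quality weights, DESeq2 1.42.0, scaling by RLE, by library totals or by the myelin list, dispersions fitted without robustness, no filter, a filter of 10 counts in every one of the 7 libraries, fits of the 7 or of all 16 libraries, leaving out 1 library at a time, and a 2-fold change with an unadjusted p.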

Additional observations from a re-analysis of the deposited data

Results flagged for a closer look

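Within the 4 App_HFD libraries 1 value lay far from the rest for 3 of the 58 genes examined, about the 1 in 20 that chance gives. Gpd1 was at 215 CPM in App_HFD 559, against 316 to 319 CPM in the others. Fkbp5 was at 182 CPM in App_HFD 560, against 265 to 272 CPM. Dgat2 was at 18.7 CPM in App_HFD 561, against 15.0 to 15.3 CPM. Of the libraries not used in the comparison, App_NCD 553 had 39.4% of its counts in mitochondrially encoded genes, against 1.22% to 4.62% in the other 15, and 18928 genes with a count above 0, against 27151 to 30617.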

How the results depend on the processing

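The number of genes called for diet in the App knock-in, 0 in edgeR, was 112 in DESeq2 (which gave no adjusted p for 4411 genes), 161 in limma-voom with quality weights and 314 with an unadjusted p under 0.05 and a 2-fold change. With 1 library left out it was 0 to 7: 7 without App_HFD 559, 1 (Scara3) without App_NCD 537 and 0 without each of the others. It was 0 under the other edgeR settings, with smallest adjusted p of 0.0787 to 0.461. DESeq2 called 45 genes and voom 5 for diet in wild type, and DESeq2 called 6 for diet by genotype. Of 986 values of the 58 genes under the alternatives, 923 kept their direction and side of the threshold, 56 kept their direction and passed it, and 7 changed sign. With scaling to the myelin list these were App (-0.105), Sgk1 (-0.012) and Mbp (-0.108). With App_NCD 553 included they were Apoe (0.038), Ctsd (0.181) and Gjb6 (-0.356), and without App_HFD 561 Ctsd (0.0011, in a range from -0.244 over the left-out libraries). The cause of these changes was not tested. No paired analysis was possible because the groups have no replicate number in common. With 3 and 4 libraries per group, many list medians near 0 changed sign when 1 library was left out.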

Other observations

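The largest fold changes at a mean of at least 1 CPM rested on single libraries. Of the 17 genes with a log2 fold change past 3 in either direction, 14 were positive and 3 negative, 10 were immunoglobulin segments, and in 16 a single library held over 50% of the summed CPM. Igkv3-2 was at 21.7 CPM in App_HFD 559, which was 87.6% of its sum, and Igkv6-13 at 9.64 CPM in App_NCD 545 (82.2%). Cyp2a5, a cytochrome P450 of the liver and olfactory mucosa, was at 8.93 CPM in App_HFD 561 (98.4%), and Ugt2a1, an olfactory glucuronosyltransferase, at 8.12 CPM in the same library (98%). The smallest edgeR adjusted p among the 17 was 0.418.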
